A study of Homo sapiens with 24 samples.

Results

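Glial and neural lineage markers were followed in 4 human glioblastoma cell lines with and without ectopic WWOX. The 10 genes were GFAP, S100B, AQP4 and SLC1A3 for astrocytes, NES and FABP7 for neural progenitors and radial glia, OLIG1 and OLIG2 for the oligodendrocyte lineage, and DCX and TUBB3 for neurons. They were chosen by symbol, through the Ensembl identifier, and all 10 were present among the 43037 genes of the table. The lines U87MG, T98G, U251MG and DBTRG-05MG are established cultures representing glioblastoma, the most aggressive tumour of the glial lineage in adults. Per the paper, U87MG was the line distributed by biobanks, which came from the central nervous system of a patient who is not known. Each line was studied as 2 variants with 3 biological replicates, which gives 8 groups and 24 libraries. The "Vec" variant had been transduced with a blank lentivirus carrying puromycin resistance, and the "WWOX" variant with a lentivirus from which the CMV promoter drives WWOX, a tumour suppressor gene that encodes a WW domain oxidoreductase. Both variants were stable transductants selected with puromycin, so that an effect of WWOX cannot be told apart from differences between selected populations. T98G was grown in MEM, DBTRG-05MG in RPMI 1640, and U251MG and U87MG in EMEM, and the line therefore cannot be told apart from its medium in any comparison between lines, except between U251MG and U87MG.

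These genes are the classical labels by which neural cell types are recognised. GFAP is the intermediate filament of mature and reactive astrocytes, S100B a calcium-binding protein of glia, AQP4 the water channel of astrocytic endfeet, and SLC1A3 the glutamate transporter GLAST. NES encodes nestin, the intermediate filament of neural progenitors, and FABP7 a fatty acid binding protein of radial glia, whereas OLIG1 and OLIG2 are basic helix-loop-helix factors of the oligodendrocyte lineage, DCX a microtubule-associated protein of migrating neuroblasts and TUBB3 the class III beta-tubulin used to label neurons. Glioblastoma cells often carry several of these labels at once, and their loss or gain is commonly read as a shift in lineage identity.

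Expression was measured by CAGE-Seq, in which each tag marks the capped 5′ end of a transcript, and values are tags scaled to a library total of 1000000 (CPM). Tags therefore mark where transcripts start, and the bases before a start are not part of that transcript. The sequences upstream of the RefSeq start are shown for NES and FABP7, the 2 progenitor genes whose levels followed each other over the libraries. Both are given 5′ to 3′ on the coding strand as the 250 bases before the start in GRCh38.p14, with capitals marking matches to the searched motifs on either strand. NES lies at chr1:156668763-156677407 on the minus strand, and its upstream stretch is chr1:156677408-156677657. FABP7 lies at chr6:122779716-122784074 on the plus strand, and its upstream stretch is chr6:122779466-122779715.
NES: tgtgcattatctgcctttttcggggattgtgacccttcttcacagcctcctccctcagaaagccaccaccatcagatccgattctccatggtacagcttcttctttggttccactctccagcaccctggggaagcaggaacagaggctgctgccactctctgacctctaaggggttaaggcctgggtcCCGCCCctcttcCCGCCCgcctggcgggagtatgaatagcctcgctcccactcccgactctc
FABP7: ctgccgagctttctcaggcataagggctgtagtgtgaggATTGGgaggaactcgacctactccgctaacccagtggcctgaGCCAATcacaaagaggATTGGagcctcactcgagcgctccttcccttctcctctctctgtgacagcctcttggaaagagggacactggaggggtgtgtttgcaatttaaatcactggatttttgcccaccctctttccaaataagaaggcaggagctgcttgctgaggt
The motifs searched were the TATA box (TATAAA), the CCAAT box (CCAAT), the GC box (GGGCGG), the RBPJ core (TGGGAA) and the NFI core (TTGGC). The NES stretch held 2 GC boxes and none of the other motifs. The FABP7 stretch held 3 CCAAT boxes and 1 NFI core, the latter overlapping the CCAAT box written as GCCAAT. Of 35116 RefSeq promoters, in windows of the same length, 42.6% held a GC box, 32.0% a CCAAT box, 40.8% an NFI core, 20.8% the RBPJ core and 10.7% the TATA box. The 2 genes thus shared none of the 5 motifs in these windows. RefSeq promoter entries were used for AQP4, SLC1A3, NES, FABP7, DCX and TUBB3, while GFAP, S100B, OLIG1 and OLIG2 are named only.

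Libraries held 10756072 to 16953689 tags with a median of 14584829, so that 3 tags, the limit that a count of 0 allows, corresponded to 0.177 to 0.279 CPM. Such limits cover counting error only. The nearest library by correlation belonged to the same line for 24 of 24 libraries. Within groups the mean correlation of a library with the other two lay between 0.949 and 0.983, except for the U251MG WWOX libraries, which stood apart at 0.904 to 0.930. WWOX itself was 0.66 higher on the log2 scale in U87MG WWOX than Vec (limma, adjusted p = 0.137), 0.38 higher in T98G, 0.39 higher in DBTRG-05MG and differed by -0.01 in U251MG, and it did not pass the threshold in any of the 4 lines. Averaged over the 4 lines WWOX was 0.35 higher on the log2 scale (limma, unadjusted p = 0.0042, adjusted p = 0.119). The tags do not tell transcripts of the endogenous gene from those of the transgene. Per the paper, the efficiency of transduction was established by Western blot, a measure of protein that these tags do not give.

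GFAP was a marker of U251MG alone at high level. The U251MG Vec libraries held 3115, 2815 and 2035 CPM, whereas U87MG Vec held 6.46, 2.63 and 3.93 CPM, T98G Vec 1.62, 2.005 and 2.34 CPM, and DBTRG-05MG Vec 1.11, 4.12 and 0.790 CPM. The U251MG Vec mean of 2655 ± 558 CPM (SD, n = 3) was 612-fold that of U87MG Vec, the next in order. This difference was 8.998 on the log2 scale (SE 0.875, limma with Benjamini-Hochberg adjustment over 12327 genes, adjusted p = 1.5e-08). U87MG, DBTRG-05MG and T98G Vec did not differ from their neighbours in the order of GFAP levels (adjusted p = 0.249 and 0.768), although the T98G Vec libraries all lay below those of U87MG. GFAP lies at chr17:44903159-44916937 on the minus strand and overlaps CCDC103 and FAM187A on the opposite strand.

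S100B, at chr21:46598604-46605208, separated the lines in 3 steps. U251MG Vec held 343, 154 and 265 CPM, DBTRG-05MG Vec 9.62, 1.87 and 15.1 CPM, U87MG Vec 0.284, 0.464 and 0.772 CPM, and T98G Vec 0, 0.0627 and 0.234 CPM, where each library had at most 3 tags. None of these 4 groups overlapped with another, which was so for 43.2% of all tested genes between U251MG and T98G Vec, 49.1% between T98G and U87MG, 50.2% between DBTRG-05MG and U251MG, 51.7% between DBTRG-05MG and T98G, 54.2% between U251MG and U87MG and 59.7% between DBTRG-05MG and U87MG. U251MG exceeded DBTRG-05MG by 5.11 (SE 0.668, adjusted p = 2.4e-06, limma) and DBTRG-05MG exceeded U87MG by 2.72 (adjusted p = 0.0021) on the log2 scale, while U87MG and T98G were not distinguished by the test (0.76, 95% interval -0.62 to 2.15, adjusted p = 0.392). As fold changes of the mean CPM, U251MG was 28.6-fold above DBTRG-05MG and DBTRG-05MG was 17.5-fold above U87MG.

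SLC1A3 followed another order of lines. In U87MG Vec it held 15.5, 13.5 and 22.9 CPM and in U251MG Vec 21.5, 15.7 and 13.4 CPM, and these groups overlapped (log2 difference 0.19, 95% interval -0.47 to 0.86, limma adjusted p = 0.682). T98G Vec held 2.46, 3.01 and 1.87 CPM, 2.41 below U251MG on the log2 scale (SE 0.322, limma adjusted p = 2.9e-06). DBTRG-05MG Vec held 1, 0 and 3 tags, which places T98G at least 12.5-fold and U87MG at least 88.5-fold above it. Thus the glutamate transporter was lowest in DBTRG-05MG, in which S100B, FABP7 and NES were all detected. The gene spans chr5:36596588-36688334 on the plus strand and is overlapped by SLC1A3-AS1 on the opposite strand.

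AQP4, at chr18:26852043-26865771, was found almost only in DBTRG-05MG. The Vec libraries of that line held 2, 3 and 6 tags and the WWOX libraries 8, 14 and 15 tags, that is 0.131, 0.193 and 0.395 CPM against 0.472, 0.907 and 1.03 CPM. These 2 groups did not overlap, which was so for 19.7% of the genes in the main test between the same groups. In the remaining 18 libraries 1 tag was counted, in a U251MG WWOX library. AQP4 stayed below the filter of 5 CPM in at least 1 library and was not part of the main test. When every gene with a tag was tested, it was called by limma in DBTRG-05MG (log2 difference 0.75, adjusted p = 0.00101), as were 395 of 25953 genes in all. It was not called by the edgeR quasi-likelihood test on the tags (1.67, unadjusted p = 0.0642, adjusted p = 0.845), so that the call depended on the tool.

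The progenitor genes NES and FABP7 had high levels in U251MG and DBTRG-05MG. NES held 95.8, 129 and 57.0 CPM in U251MG Vec, 36.7, 19.5 and 60.5 CPM in DBTRG-05MG Vec, 1.14, 2.55 and 2.10 CPM in U87MG Vec and 0.352, 0.125 and 0.0778 CPM in T98G Vec. DBTRG-05MG was 20.2-fold above U87MG (log2 difference 3.73, SE 0.464, limma adjusted p = 6.7e-07), and U87MG was 10.4-fold above T98G (1.87, limma adjusted p = 0.00255). Between U251MG and DBTRG-05MG the fold was 2.41, with 1 DBTRG-05MG library above the lowest U251MG library in CPM, though not after the TMM scaling used for the test. The log2 difference of 1.38 between them passed the threshold (SE 0.464, limma adjusted p = 0.0267), but it no longer did when DBTRG-05MG Vec replicate 1 or 2 or U251MG Vec replicate 1 or 2 was left out (adjusted p = 0.0535 to 0.150).

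FABP7 was nearly absent from 2 of the lines. U251MG Vec held 40.6, 82.4 and 28.3 CPM and DBTRG-05MG Vec 28.9, 9.34 and 22.1 CPM, whereas U87MG Vec held at most 1 tag and T98G Vec at most 5 tags per library. The highest DBTRG-05MG library thus lay above the lowest of U251MG in CPM, as for NES. DBTRG-05MG exceeded T98G by 4.83 on the log2 scale (SE 0.481, limma adjusted p = 2.7e-08), a 157-fold difference of the means. U251MG was 2.51-fold above DBTRG-05MG, and this step was called in the main test (log2 1.35, limma adjusted p = 0.0357), but it was lost under 6 of the 10 alternative settings, edgeR and DESeq2 among them (adjusted p = 0.0545 to 0.113). It was also lost without DBTRG-05MG Vec replicate 2 (0.93 on the log2 scale, adjusted p = 0.196) or 3 (1.43, adjusted p = 0.0621) and without U251MG Vec replicate 1 (1.41, adjusted p = 0.0655) or 2 (0.97, adjusted p = 0.176).

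The oligodendrocyte factors were low throughout. OLIG2 was counted in the other pair of lines, with 2.77, 0.309 and 0.982 CPM in U87MG Vec and 0.984, 3.38 and 1.01 CPM in T98G Vec, against at most 0.286 CPM in any library of U251MG or DBTRG-05MG. OLIG2, at chr21:33025935-33029196, and OLIG1, at chr21:33070141-33072413, are neighbours on the plus strand. OLIG1 nevertheless had only 6 tags in all 24 libraries, 4 of them in DBTRG-05MG Vec. Neither gene reached 5 CPM, and neither entered the main test.

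The neuronal genes gave opposite pictures. TUBB3 (chr16:89921392-89938761, plus strand) was present in every library, between 14.95 and 188 CPM, and no neighbouring lines in its order differed in the Vec groups (limma adjusted p from 0.118 to 0.938). The 3 Vec libraries were 84.6, 134 and 144 CPM in U87MG, 162, 76.4 and 117 CPM in T98G, 69.2, 52.0 and 75.7 CPM in U251MG and 90.3, 28.3 and 94.2 CPM in DBTRG-05MG. An annotated gene on the same strand overlaps TUBB3, and how tags were divided between them is not given in the sources used here. DCX (chrX:111293779-111412429, minus strand) was at 0 in 22 libraries and had 1 tag in each of the other 2.

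**Figure D1:**
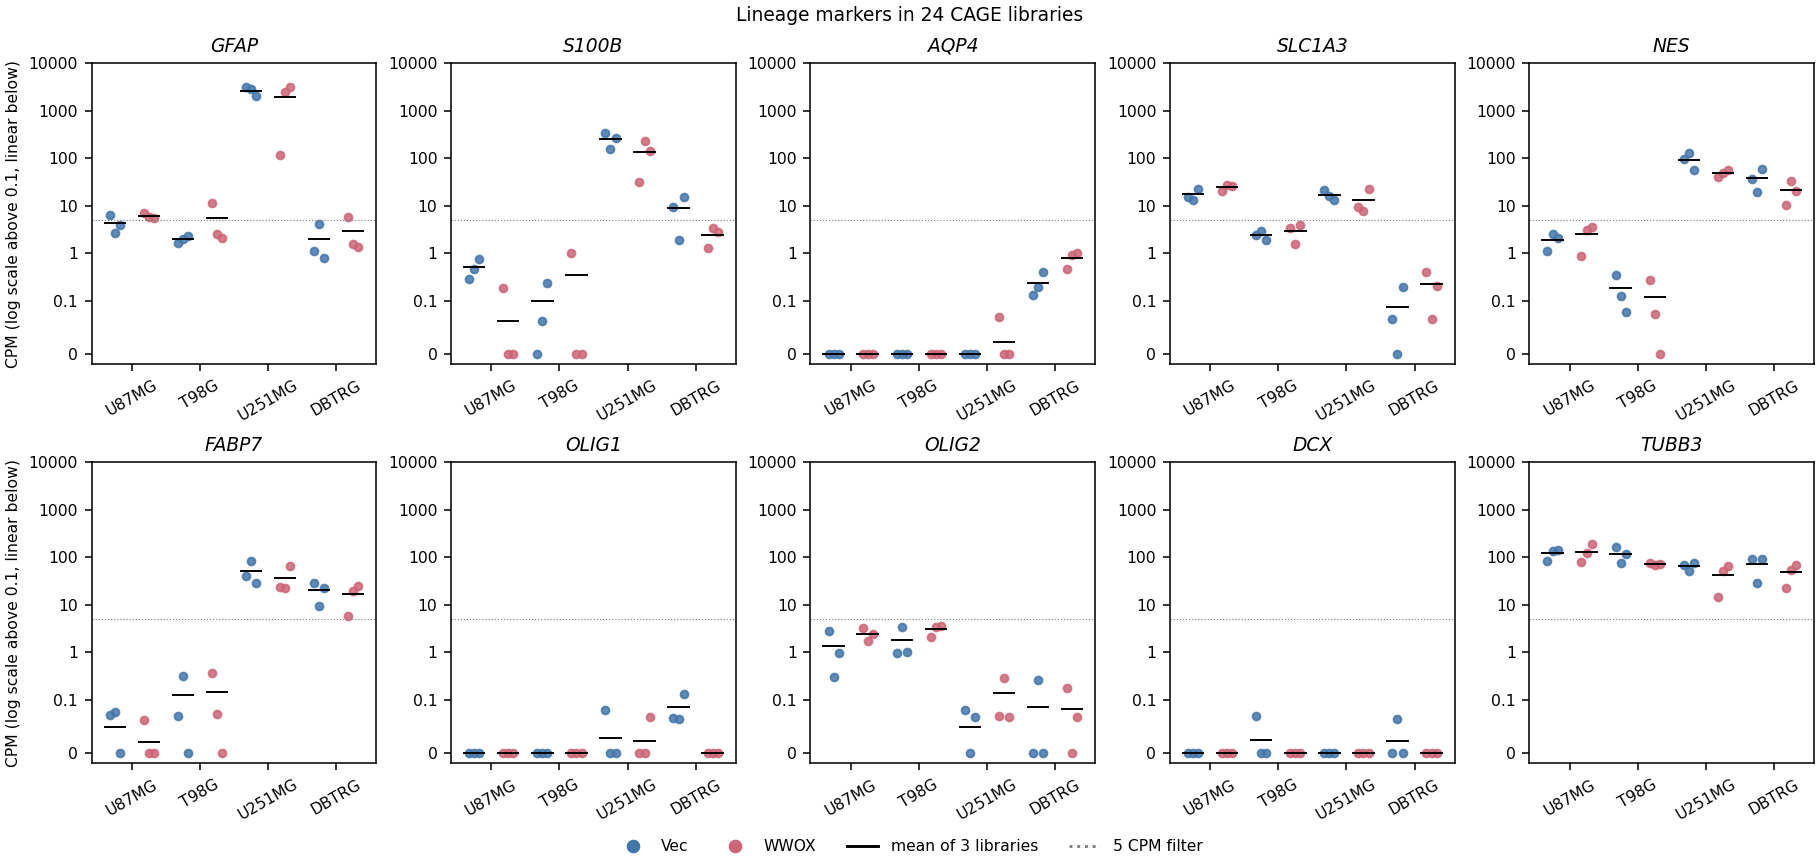
CPM of the 10 markers in 24 libraries, on an axis that is logarithmic above 0.1 CPM and linear below it, by line and variant, with black bars for the mean of 3 libraries and a dotted line at the 5 CPM filter. GFAP and S100B peak in U251MG, NES and FABP7 are high in U251MG and DBTRG-05MG, SLC1A3 is lowest in DBTRG-05MG, and TUBB3 is present in all 24 libraries.

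Between 2 and 5 of the 10 markers were called in each of the 6 comparisons of Vec lines, where 31.6% (DBTRG-05MG against U251MG), 32.4% (U251MG against T98G), 38.6% (U251MG against U87MG), 39.8% (T98G against U87MG), 41.2% (DBTRG-05MG against T98G) and 44.1% (DBTRG-05MG against U87MG) of the 12327 tested genes were called. Of the 10 markers 6 were tested, and these had entered through the lines in which they were high, so no excess is read from the counts. As a description over the 24 libraries, which share lines and therefore are not independent points, NES and FABP7 had a Pearson r of 0.936 on the scaled log2 values, S100B and FABP7 0.876, and GFAP and S100B 0.864, whereas SLC1A3 had -0.240 with FABP7 and TUBB3 had -0.579 with it. The genes whose profile was most like that of each marker were MYH14 and H4C9 for GFAP (both r = 0.979), SMIM10L2A (0.970) and PODXL2 (0.956) for S100B, HNRNPF (0.946) and ZNF22-AS1 (0.938) for SLC1A3, TUBB2A and LINC01563 (both 0.955) for NES, LINC01579 (0.985) and SOX21 (0.984) for FABP7, and NUDT8 (0.882) for TUBB3, followed by a gene without a symbol.

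The question whether WWOX moved these markers was asked within each line. None of the 6 tested markers passed the threshold in U87MG, T98G, U251MG or DBTRG-05MG (limma), where 3.2%, 1.14%, 0.316% and 1.02% of all tested genes did. In the main limma fit none of the 24 single-line tests had an unadjusted p under 0.05, against 11.5% of all genes in each of U87MG, T98G and U251MG and 7.63% in DBTRG-05MG. Alternative limma fits put NES, lower in WWOX, under 0.05 before adjustment. They did so in U251MG and DBTRG-05MG with a pseudocount of 1 and with a replicate block. The model of the 2 groups alone did so in U251MG only. Such fits also put S100B under 0.05 in U87MG or DBTRG-05MG, and 0 markers were called. In DBTRG-05MG the edgeR test gave 0 called with S100B alone under 0.05 before adjustment. The DESeq2 test likewise gave 0 called in each line, with S100B in U87MG under 0.05 before adjustment. The edgeR test without the filter, over 25953 genes and chosen after seeing the data, differed from both. It called S100B lower in WWOX in U87MG (-2.78, adjusted p = 0.00499) and in DBTRG-05MG (-1.86, adjusted p = 6.7e-05) and GFAP higher in T98G WWOX (1.43, adjusted p = 0.0133), while it called 0.94% of all genes in DBTRG-05MG, 2.81% in U87MG, 1.73% in T98G and 1.21% in U251MG. Its prior degrees of freedom were infinite, against 5.99 with the filter, so that every gene was given the spread of the common trend in place of its own. The quasi-dispersion it used was 0.822 for S100B and 0.818 for GFAP, whereas their own were 5.28 and 5.69. The calls of S100B and GFAP thus came only from the test that left out the spread between their own libraries. A p above the threshold does not show that the levels were equal, since the 95% intervals, drawn in the plot of the differences, spanned from 1.34 log2 units in SLC1A3 to 3.63 in GFAP. In bulk libraries, moreover, fewer cells with a marker and less RNA per cell cannot be told apart.

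**Figure D2:**
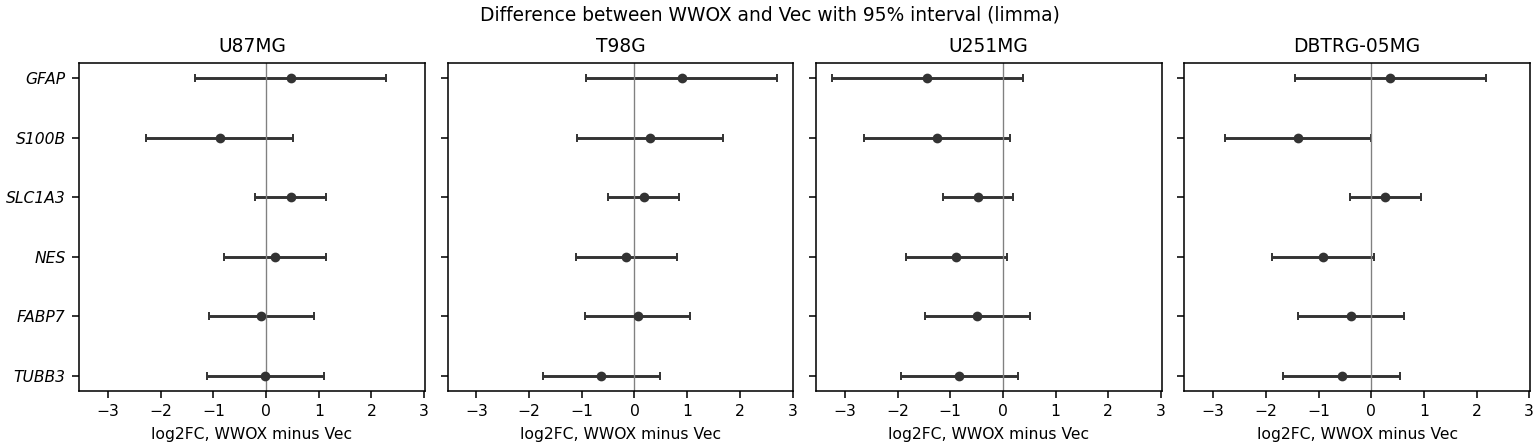
Log2 difference between WWOX and Vec (x axis) for the 6 tested markers (y axis) in the 4 lines, as points with the 95% interval from limma. All 24 intervals include 0, and those of GFAP are the widest.

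S100B came closest to a difference. In U87MG, WWOX libraries held 0.184, 0 and 0 CPM against 0.284, 0.464 and 0.772 CPM in Vec, that is 3, 0 and 0 tags against 4, 6 and 11, and this was the only tested marker and line in which the 2 variants did not overlap (17.5% of all tested genes did not overlap in U87MG, against 19.7% in DBTRG-05MG, 16.2% in T98G and 10.4% in U251MG). DBTRG-05MG WWOX held 1.30, 3.37 and 2.74 CPM against 9.62, 1.87 and 15.1 CPM in Vec (log2 difference -1.39, SE 0.668, limma adjusted p = 0.656). T98G WWOX held 1.02, 0 and 0 CPM, with 11 tags in replicate 1, and U251MG WWOX held 31.8, 228 and 144 CPM. Averaged over the 4 lines the S100B difference was -0.81 on the log2 scale (SE 0.334, unadjusted p = 0.025, limma adjusted p = 0.25), and an exact two-sided permutation of variants within lines gave p = 0.0449 over 160000 arrangements, unadjusted for the choice of S100B among the 6 tested markers. The same exact permutation gave p = 0.089 for TUBB3, 0.095 for NES, 0.377 for FABP7, 0.526 for SLC1A3 and 0.916 for GFAP. By limma the mean difference was called in none of the 6 tested markers, against 1.78% of all genes, and 15.4% had an unadjusted p under 0.05. With edgeR with the filter, DESeq2 and limma-voom, no tested marker had an unadjusted p under 0.05 for this mean. The alternative limma settings on log2 CPM kept S100B under 0.05 before adjustment, and the one with a replicate block had NES under 0.05 too. Leaving out U251MG WWOX replicate 2 alone brought S100B past the threshold (-1.02, adjusted p = 0.0491), while leaving out U251MG WWOX replicate 1 moved it to -0.57 (adjusted p = 0.408).

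The GFAP level of U251MG WWOX was decided by 1 library. Replicate 1 held 114 CPM while replicates 2 and 3 held 2506 and 3226 CPM, within or just above the range of Vec. GFAP differed by -1.43 between WWOX and Vec (SE 0.875, limma adjusted p = 0.572), and without replicate 1 by 0.20 (adjusted p = 0.961), so that the sign turned. GFAP in replicate 1 stood at 4.30% of the mean of the U251MG Vec libraries. S100B stood at 12.5%, TUBB3 at 22.8%, NES at 42.7%, FABP7 at 46.1% and SLC1A3 at 55.4%, which puts all 6 tested markers below the Vec mean. In CPM, WWOX replicate 2 also had all 6 below that mean. Its SLC1A3 (45.8%) and FABP7 (45.1%) were lower than in replicate 1. Its GFAP (94.4%), S100B (89.99%), TUBB3 (77.2%) and NES (52.6%) were higher than in replicate 1. Genes private to U251MG held at least 10 CPM in each of its Vec libraries. They held at most 0.3 CPM in every Vec library of the other lines. These 3 genes stood in replicate 1 at a summed 71.2% of their Vec mean, against 61.9% and 103% in WWOX replicates 2 and 3. The summed level of the private genes of U87MG, T98G and DBTRG-05MG in replicate 1 was 0.0361%, 0.0737% and 0.175% of that in those lines. What set the markers low in replicate 1, and their CPM below the Vec mean in replicate 2, was not tested.

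NES in U251MG WWOX held 40.1, 49.4 and 57.5 CPM, of which only the highest reached the lowest Vec library at 57.0 CPM. After the TMM scaling used for the test, only replicate 2 reached that library (5.96 against 5.82, log2). The NES log2 difference of -0.88 had a 95% interval of -1.84 to 0.08 (limma adjusted p = 0.482), and without replicate 1 it was -0.66. FABP7 held 23.3, 22.7 and 66.6 CPM and SLC1A3 9.33, 7.72 and 22.9 CPM in the same libraries. In CPM, replicate 3 lay within the Vec range in FABP7 and above it in SLC1A3. After the scaling, SLC1A3 in replicate 3 was within the Vec range too (4.27, with Vec replicate 1 at 4.46, log2). TUBB3 held 14.95, 50.7 and 64.2 CPM, and its log2 difference shrank from -0.83 to -0.11 without replicate 1.

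In DBTRG-05MG 2 libraries of opposite variants resembled each other. Vec replicate 2 held 1.87 CPM of S100B, 28.3 CPM of TUBB3, 9.34 CPM of FABP7 and 19.5 CPM of NES, the lowest values among the Vec libraries, and WWOX replicate 1 held 1.30, 22.9, 5.96 and 10.3 CPM of the same genes, the lowest among the WWOX libraries. For GFAP the order was inverted, with 4.12 and 5.72 CPM in these 2 libraries and 0.790 to 1.56 CPM in the other 4. The nearest library of WWOX replicate 1 over all tested genes was Vec replicate 2 (r = 0.975), against 0.974 with the closest of its own group. The match was not mutual, since the nearest of Vec replicate 2 was Vec replicate 1 (also 0.975). A nearest library of the opposite variant was also found for T98G Vec replicate 2, U251MG Vec replicate 2 and each U251MG WWOX library. With DBTRG-05MG WWOX replicate 1 left out the FABP7 difference turned from -0.38 to 0.25 and the GFAP difference from 0.37 to -0.15, none of them past the threshold. NES held 10.3, 33.6 and 20.4 CPM in WWOX, overlapping with Vec, and its log2 difference was -0.91 (95% interval -1.88 to 0.05, limma adjusted p = 0.693).

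**Figure D3:**
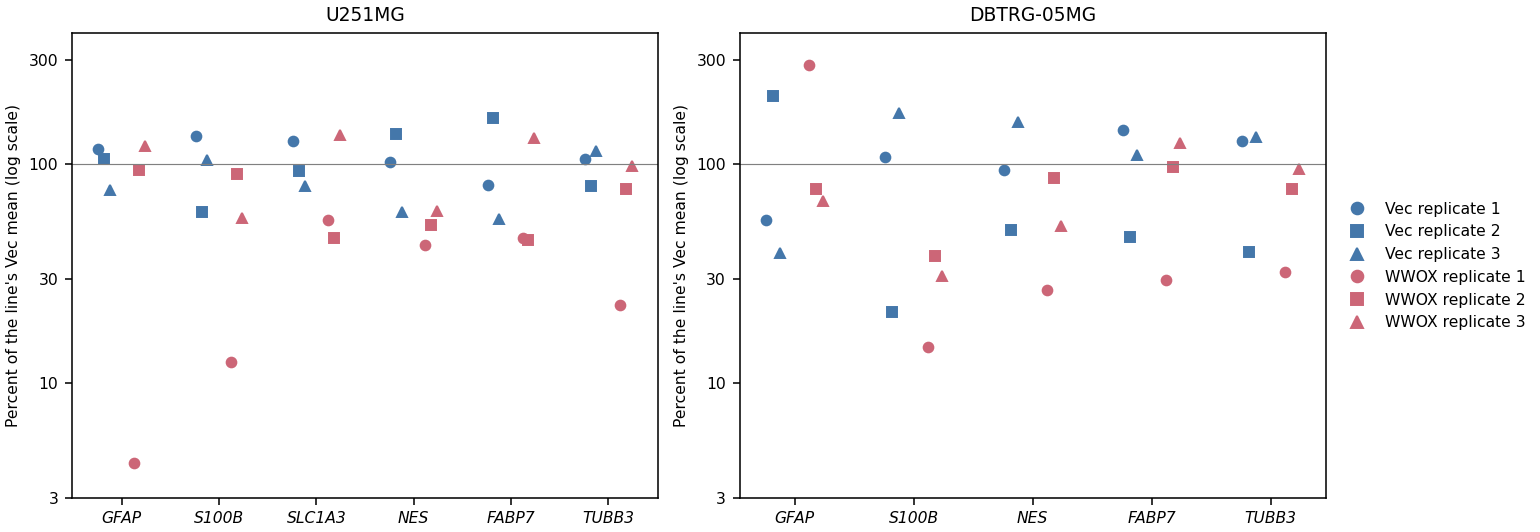
Level of the tested markers in each U251MG (left) and DBTRG-05MG (right) library as percent of the mean of that line's Vec libraries, on a log axis, with colour for the variant and symbol for the replicate. U251MG WWOX replicate 1 has GFAP at 4.30% and S100B at 12.5%, and DBTRG-05MG Vec replicate 2 and WWOX replicate 1 are low in 4 genes and high in GFAP.

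In U87MG and T98G the tested markers overlapped between variants, except S100B in U87MG. SLC1A3 held 20.0, 27.6 and 26.5 CPM in U87MG WWOX against 15.5, 13.5 and 22.9 CPM in Vec (log2 difference 0.46, 95% interval -0.21 to 1.13, limma adjusted p = 0.736). TUBB3 in T98G held 77.6, 69.6 and 71.6 CPM in WWOX, of which 2 were below the lowest Vec value of 76.4 CPM. After the TMM scaling used for the test, none was below the lowest Vec library (6.44, 6.25 and 6.24 against 6.22, log2). The log2 difference of TUBB3 in T98G was -0.63 (95% interval -1.74 to 0.48, limma adjusted p = 0.718). OLIG2 was 3.24, 1.70 and 2.46 CPM in U87MG WWOX and 2.14, 3.41 and 3.57 CPM in T98G WWOX, overlapping with Vec in both lines, and with every gene tested it was not called in either (limma adjusted p = 0.501 and 0.553). GFAP held 7.1, 5.77 and 5.5 CPM in U87MG WWOX, overlapping with Vec. GFAP in T98G was higher in WWOX replicate 1 only, at 11.6 CPM against 2.52 and 2.11 CPM. The same library had the 11 S100B tags and 4 FABP7 tags, and the summed private genes of U87MG and U251MG stood in it at 0.379% and 0.453% of their levels in those lines, compared with at most 0.0261% and 0% in the other T98G WWOX libraries and 0.0926% and 0.407% in T98G Vec. Its GFAP level was 0.438% of the U251MG Vec mean. The part of such tags in the value was not tested.

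A line by variant interaction was tested for each marker, and none of the 6 passed the threshold (limma moderated F test, adjusted p from 0.65 to 0.977), whereas 3.5% of all tested genes did. The edgeR test without the filter, with the spread of the common trend, called S100B alone in this interaction (adjusted p = 0.0016), against 4.16% of all genes, and none of the markers in the mean over lines, against 2.34%.

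The wider lineage programmes were described with 4 lists of 15 genes each. Among 12 tested astrocyte and radial glia genes, ALDH1L1, a folate enzyme of astrocytes, was higher in U87MG WWOX, where it held 0.551 to 1.36 CPM against 0 tags in Vec (fitted log2 difference 1.50, which depends on the pseudocount where Vec is at 0, limma adjusted p = 0.000324), and lower in DBTRG-05MG WWOX, at 1.72 ± 0.15 against 4.02 ± 1.35 CPM (SD, n = 3, log2 difference -1.02, limma adjusted p = 0.0376). ALDH1L1 reached 5 CPM only in DBTRG-05MG Vec (highest 5.24 CPM) and so entered the test through the group in which it was higher. GJA1, the gap junction protein connexin 43, was lower in T98G WWOX (-1.93, limma adjusted p = 0.0403). The medians of this list lay between -0.04 and 0.04 in the 4 lines, close to those of all genes (-0.04 to 0.00).

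Among 10 tested neural stem and progenitor genes, MSI1, the RNA-binding protein Musashi, was lower in U251MG WWOX at 2.61 ± 1.44 against 8.40 ± 2.46 CPM (SD, n = 3, log2 difference -1.56, limma adjusted p = 0.0459), and SOX3 was lower in T98G WWOX, at no more than 0.0930 CPM against 0.389 to 1.41 CPM (-1.47, limma adjusted p = 0.00652). MSI1 was also the 1 gene of the 4 lists called in the mean over lines, at -0.72 (limma adjusted p = 0.0255), a call lost under 5 of the settings and with 5 of the libraries left out. Among 7 tested oligodendrocyte lineage genes, MBP, a myelin protein, was higher in U87MG WWOX with 1.19 to 3.24 CPM against at most 0.0773 CPM (2.35, limma adjusted p = 0.00023), and NKX2-2, a progenitor transcription factor, was lower in DBTRG-05MG WWOX at 3.09 ± 0.31 against 6.72 ± 0.21 CPM (SD, n = 3, -1.06, limma adjusted p = 0.00216). In DBTRG-05MG, NKX2-2 reached the 5 CPM of the filter in Vec only, the group in which it was higher. Of the 8 tested neuronal genes none was called in any line or in the mean. List medians per line ranged from -0.40 (T98G) to 0.14 (DBTRG-05MG) for the progenitor genes, from -0.53 (T98G) to -0.13 (DBTRG-05MG) for the oligodendrocyte genes and from -0.20 (T98G) to 0.37 (U251MG) for the neuronal genes. In each line at most 2 genes of the 4 lists were called, where 3.2% of all tested genes were called in U87MG, against 1.02% in DBTRG-05MG, 1.14% in T98G and 0.316% in U251MG. The U87MG calls of ALDH1L1 and MBP held under all 10 alternative settings and with each of the 24 libraries left out, whereas NKX2-2 was lost under 4 of the settings, SOX3 under 2 and with 2 of the libraries left out, ALDH1L1 in DBTRG-05MG under 6 and with 8, GJA1 under 6 and with 11, and MSI1 in U251MG under 7 and with 20, U251MG WWOX replicate 1 among them (-1.20, adjusted p = 0.156).

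Between Vec lines the lists are given as a description, since genes that reached 5 CPM only in the lines where they were high had to differ there. Of 10 tested progenitor genes 7 were higher and 1 lower in U251MG than in T98G (median 2.25 on the log2 scale), and 7 were higher and 1 lower in DBTRG-05MG than in T98G (median 2.68). Between DBTRG-05MG and U251MG, where NES and FABP7 were lower in DBTRG-05MG, 4 progenitor genes were higher and 1 lower (median 0.094). In U251MG against T98G, 5 of 7 oligodendrocyte lineage genes were higher and 1 lower (median 1.95), 4 of 8 neuronal genes higher and 1 lower (1.16), and 4 of 12 astrocyte and radial glia genes higher and 3 lower (0.48). Of the same 12 genes, 7 were higher and 0 lower in DBTRG-05MG than in T98G (median 1.29). Against U251MG, 7 were higher and 1 lower in DBTRG-05MG (median 1.07). Against U87MG, 7 were higher and 1 lower in DBTRG-05MG (median 1.17), where 44.1% of all tested genes were called. Over all tested genes, 15.5% were higher and 16.9% lower in U251MG than in T98G, 21.5% higher and 19.7% lower in DBTRG-05MG than in T98G, and 17% higher and 14.6% lower in DBTRG-05MG than in U251MG. SOX2, a core factor of neural stem cells, was at 98.1 ± 64.9 CPM in U251MG Vec and 47.0 ± 4.72 CPM in DBTRG-05MG Vec, against 0.0707 ± 0.0710 CPM in U87MG Vec and 0.360 ± 0.252 CPM in T98G Vec (SD, n = 3). PTPRZ1, a receptor phosphatase of the astrocyte and radial glia list, was at 18.3 ± 5.14 and 16.6 ± 15.4 CPM in the former 2 lines and at most 0.141 CPM in any Vec library of the latter 2 (these 2 genes were chosen after their values were seen). The mature markers of the oligodendrocyte list, MOG, MAG, MOBP and CLDN11, and its factor SOX10 were at or under 3 tags in every library of all 8 groups, as was the neuronal RBFOX3.

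**Figure D4:**
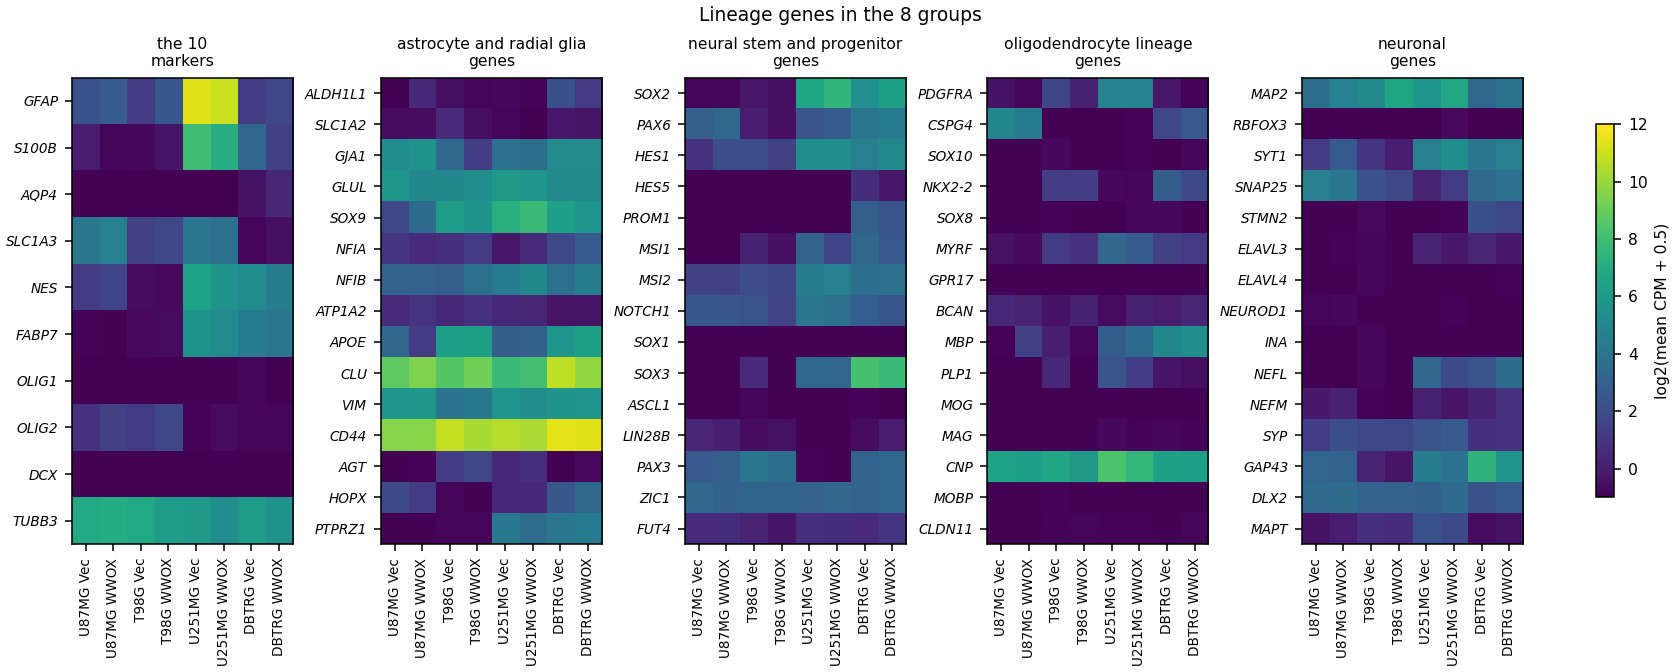
Log2 of the group mean CPM plus 0.5 (colour) for the 10 markers and 4 lineage lists (rows) in the 8 groups of 3 libraries (columns). The colour changes mainly between lines and little between variants, with SOX2, PTPRZ1, NES and FABP7 bright in U251MG and DBTRG-05MG. Other genes differ in order, such as APOE, which is brighter in T98G than in U251MG.

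Markers of other cell types were looked at in the same way. Of 8 microglia and immune markers, AIF1, CX3CR1, P2RY12 and PTPRC were at or under 3 tags in every library, and the summed level of the list ranged from 0.0670 to 3.72 CPM outside U87MG and from 9.52 to 21.9 CPM in it. The 6 endothelial markers summed to 0.0930 to 15.4 CPM, with PECAM1 and CLDN5 at or under 3 tags throughout, and CDH5, a junction protein, was higher in U251MG WWOX at 4.43 to 13.2 CPM against 2.01 to 3.81 CPM in Vec (log2 difference 1.28, limma adjusted p = 0.0132), a call that was lost under 5 of the settings and with 3 libraries left out in turn, U251MG WWOX replicate 1 (0.97, adjusted p = 0.0683) and Vec replicates 2 and 3. CDH5 reached the 5 CPM of the filter only in U251MG WWOX, and so entered the test through the group in which it was higher. Of 8 fibroblast and pericyte markers, summing to 2.68 CPM in the lowest and 675 CPM in the highest library, 6 were tested and 4 were called in U87MG, beside 3.2% of all tested genes. There COL1A1 (-1.91, limma adjusted p = 0.0408) and COL1A2 (-1.46, limma adjusted p = 0.00292) were lower and LUM (2.87, limma adjusted p = 0.000512) and DCN (1.50, limma adjusted p = 0.0469) were higher in WWOX. The DCN call was lost under 6 of the settings and with 20 of the libraries left out and that of COL1A1 under 6 and with 9, whereas LUM and COL1A2 were lost under 1 setting, the model of the 2 groups alone. Of the 5 epithelial markers, summing to 0.339 CPM in the lowest and 1291 CPM in the highest library, none was called in any WWOX comparison. Their part in the marker values was not tested.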

How the data were processed

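Capped 5′ ends of RNA were counted by CAGE-Seq in 24 libraries. Per the labels, RNA with an integrity number over 8 went into a CAGE library kit, and the submitters' processing notes name STAR, SAMtools, limma 3.42 and hg38; the annotation release is not given in the sources used here. The deposited values are CPM per Ensembl gene, which the authors scaled to a library total of 1000000; all values came out as whole tags (tolerance 0.01 tag), and tags were used for counting limits and count tests. The 24 single-library tables equalled the columns of the joint table, and 0 columns were left unused. Symbols were matched for 43033 of 43037 identifiers, with GENCODE 44 on GRCh38 for positions.

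CPM were scaled by unweighted TMM, logged as log2(CPM + 0.5), filtered to the 12327 genes that reached 5 CPM in some library, and fitted with limma 3.58.1 (R 4.3.3, trend) in 1 model of 8 groups. P-values are two-sided, Benjamini-Hochberg adjusted over all tested genes, at a threshold of 0.05. Fold changes understate low genes on this scale, so folds of mean CPM are printed too, against 3 tags per library where a group lay at or under them. Alternatives included edgeR 4.0.16, DESeq2 1.42.0, limma-voom, other pseudocounts, scalings and filters, a replicate block and each library left out. The code was tested on simulated tags. Where replicates were separate cultures is not stated, so p-values measure the spread between these samples. The markers and lists were chosen with earlier results of these data known. Named were all 10 markers, list genes past the threshold (up to 3 per direction and comparison), the 2 most correlated genes per tested marker, and WWOX.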

Additional observations from a re-analysis of the deposited data

Results flagged for a closer look

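For 6 genes of the lists named above, but for none of the 6 tested markers, the WWOX difference varied between the 4 lines in the interaction test over all genes, which 3.5% of all tested genes passed (limma moderated F test, Benjamini-Hochberg adjusted). ALDH1L1 had an adjusted p = 0.000279, with log2 differences of 1.50 in U87MG and -1.02 in DBTRG-05MG. MBP had an adjusted p = 0.00319, with 2.35 in U87MG and -0.87 in T98G. NKX2-2 had an adjusted p = 0.0295, with -1.06 in DBTRG-05MG and 0.01 in T98G. LUM had an adjusted p = 0.0107, with 2.87 in U87MG and -0.73 in T98G. COL1A2 had an adjusted p = 0.0301, with -1.46 in U87MG and 0.35 in U251MG. CDH5 had an adjusted p = 0.0473, with 1.28 in U251MG and 0.07 in T98G. Levels of ALDH1L1, MBP and NKX2-2 were under 10 CPM in the lines where they were called. ALDH1L1 passed the filter only through DBTRG-05MG Vec, and CDH5 only through U251MG WWOX, the groups in which they were highest.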

How the results depend on the processing

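The count of markers called between WWOX and Vec in a single line was 0 under each of 10 alternatives (pseudocounts, filter, scalings, tools, samples in the model and replicate block) and with each library left out. The edgeR fit without filter, added after seeing the data, gave every gene the spread of the common trend and called 1 in each of U87MG (S100B), T98G (GFAP) and DBTRG-05MG (S100B) and 1 in the interaction (S100B). It called 4 markers instead of 2 between T98G and U87MG Vec (GFAP and S100B added), and it also called TUBB3 lower in U251MG and DBTRG-05MG than in U87MG and T98G, and GFAP lower in DBTRG-05MG than in U87MG. Some of these calls were also made by planned limma fits. The model of the 2 groups alone called S100B lower in T98G than in U87MG Vec (adjusted p = 0.035). It also called TUBB3 lower in U251MG than in U87MG Vec (adjusted p = 0.017). Without U251MG WWOX replicate 1, TUBB3 was called lower in DBTRG-05MG than in U87MG Vec (adjusted p = 0.040). By limma the count for the mean over lines was 0 to 1 with libraries left out, the 1 being S100B without U251MG WWOX replicate 2. Between DBTRG-05MG and U251MG Vec, 5 markers were called as reported, 3 with a pseudocount of 0.1, 4 under 5 other alternatives, and 3 to 5 with libraries left out. The 3 were found without DBTRG-05MG Vec replicate 2, U251MG Vec replicate 1 or U251MG Vec replicate 2. Small differences changed sign. TUBB3 in U87MG was 0.050 with CPM as deposited, 0.072 with edgeR, 0.075 with DESeq2, 0.00015 with voom and 0.069 with edgeR without filter. FABP7 in T98G was -0.039 with edgeR, -0.082 with voom and -0.052 with edgeR without filter. TUBB3 between DBTRG-05MG and U251MG Vec was 0.035 with edgeR, 0.053 with DESeq2 and 0.047 with edgeR without filter. The cause was not tested. With libraries left out in turn, differences between WWOX and Vec ranged from -0.14 to 0.69 for NES and -0.34 to 0.32 for TUBB3 in U87MG, from -0.27 to 0.59 for S100B, -0.025 to 0.51 for SLC1A3, -0.35 to 0.023 for NES and -0.19 to 0.26 for FABP7 in T98G, from -2.35 to 0.20 for GFAP in U251MG, from -0.15 to 0.95 for GFAP and -0.83 to 0.25 for FABP7 in DBTRG-05MG, and from -0.16 to 0.48 for GFAP in the mean. Between Vec lines they ranged from -0.046 to 0.29 for FABP7 and -0.33 to 0.29 for TUBB3 (T98G minus U87MG), from -0.95 to 0.022 for GFAP (DBTRG-05MG minus T98G) and from -0.39 to 0.41 for TUBB3 (DBTRG-05MG minus U251MG). Same-numbered Vec and WWOX libraries deviated from their group means with correlations of -0.546 to 0.510, so the replicate numbers were not taken as pairs. A fit with the replicate number as a block called 0 markers in each line and in the mean, as without it, and lost the list calls of ALDH1L1 in DBTRG-05MG, COL1A1, GJA1 and MSI1 (adjusted p = 0.069 to 0.165). Depth limits AQP4, OLIG1, OLIG2 and DCX, which never reached 5 CPM. With every gene tested, limma also called OLIG1 lower in DBTRG-05MG WWOX (-0.21, adjusted p = 0.0325) on 0 tags against 4, where edgeR gave an adjusted p = 0.850. In that limma setting 395 of 25953 genes were called in this line.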
